A study of Homo sapiens with 4 samples.

Results

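The enzymes and adaptors that write N6-methyladenosine (m6A) were examined as RNA targets of YTHDF1, which reads the mark on RNA in the cytoplasm. They comprise 9 genes chosen by name: METTL3, METTL14, METTL16, WTAP, VIRMA, RBM15, RBM15B, ZC3H13 and CBLL1. A YTHDF1 peak was listed for 8 of the 9, against 31.8% of 20056 protein-coding genes, a share that was not matched for expression. These 8 genes held 39 of the 26819 peaks in the table, or 0.145%. METTL14 was the gene with no peak.

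RNA immunoprecipitation sequencing (RIP-seq) was performed in SNU638, an established gastric cancer cell line. Both groups came from cells that overexpressed YTHDF1, went without serum over 24 h and were then exposed to IFN-γ (10 ng/ml, a further 24 h). IP-YTHDF1 (2 libraries) is the RNA recovered with the protein, through an antibody to FLAG by the study's methods, and Input (2 libraries) is the RNA before recovery. Untreated cells, cells without overexpression, cells with a YTHDF1 that cannot bind m6A and IgG recoveries were not analysed here. The values thus describe recovery with overexpressed YTHDF1 under IFN-γ and no change caused by either. RNA that IgG, an antibody also named in the study's methods, would recover could not be told apart. Peaks were given as windows of 50 bp, each carrying a signal value for IP-YTHDF1 against Input, whose scale is not stated, a p-value and a q-value. The values are not split by library, so the depth and the spread between replicates are unknown, and whether a neighbouring pair of values differs beyond replicate error could not be judged. The table holds recovery relative to Input and not expression, so the labelled cell type could not be checked against its markers.

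m6A is placed on nascent RNA in the nucleus by a complex built around METTL3, which transfers the methyl group from S-adenosylmethionine, and METTL14, its inactive partner that helps to hold the RNA. WTAP anchors this pair to a larger set of adaptors, in which VIRMA serves as a scaffold, RBM15 and RBM15B bind RNA, ZC3H13 keeps the complex in the nucleus and CBLL1, also called HAKAI, is a RING finger protein. METTL16 works apart from the complex on a few structured RNAs, among them the mRNA of MAT2A, the enzyme that makes S-adenosylmethionine. The study depleted or inhibited METTL3 elsewhere to lower m6A in gastric cancer cells, and the comparison here asks whether the mRNAs of METTL3 and its partners were themselves recovered with YTHDF1.

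The genome sequence under the windows was not used here, except where a window reached into the RefSeq table of gene starts (GRCh38.p14), which happened by at least 30 bases for 3 of the 39 windows, in WTAP and RBM15B. For each, 30 bases of the plus strand are shown, read 5′ to 3′, because these are the member windows for which it can be asked whether the preferred letters of m6A are present. The letters searched, known as DRACH, were GGAC or GAAC or AGAC or AAAC or TGAC or TAAC, followed by A or C or T. They were searched on the strand of the gene only, and a match would be in capitals.
WTAP, chr6:159727256-159727285: ctcccttcacctttcctctcctggcggggt
WTAP, chr6:159727136-159727165: gctgagctccggggcccgcggagctcgcgc
RBM15B, chr3:51391286-51391315: cgccgagtccttttgtccaagatggcggcg
None of the 3 stretches held a match. Among 832 listed windows of all genes with 30 bases in the same table, 22.8% held one, and 13.2% held GGAC. The stretch of WTAP at 159727256 is part of its strongest window, and the rest of that window was not read. The GC content of the 3 stretches was 63.3%, 83.3% and 63.3%. No match says only that these letters are not in these bases.

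Of 20056 protein-coding genes in RefSeq, 31.8% had a listed peak, next to 8 of the 9 writer genes. With q-values limited to 0.001 or less, 7 of the 9 kept a window, against 21.2% of coding genes, and METTL16 was the gene lost. At a signal value of at least 2, 6 of the 9 had one, against 22.0%, and both METTL16 and VIRMA dropped below this value. A Bonferroni limit over the windows of the listed genes (p of 1.61e-07) left 5 of the 9, METTL3, WTAP, RBM15, RBM15B and CBLL1, against 12.5%. It counted the least possible number of tested windows in each gene, and none in genes without a listed window, so it is lenient. RBM15B passed closest to it, with a deposited p-value of 7.87e-08. No window of a writer gene overlapped a window of another gene, so leaving out such overlaps kept all 8, against 30.1% of coding genes with the same strand considered and 30.0% with either strand. Genes silent in SNU638 count in the denominator of these shares, and the writer genes were not matched to others for expression.

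The strongest window per gene had a median signal value of 2.32 over the 8 genes and of 2.23 over the 6679 coding genes in the table, and 5 of the 8 lay above the latter. Over single windows, the median was 1.65 in the writer genes and 1.84 in the whole table, and 14 of the 39 windows lay above the latter. A gene with many listed windows has more chances of a high one. Compared with the median of coding genes that had the same number of listed windows, 3 of the 8 lay above it: METTL3, ZC3H13 and CBLL1.

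**Figure D1:**
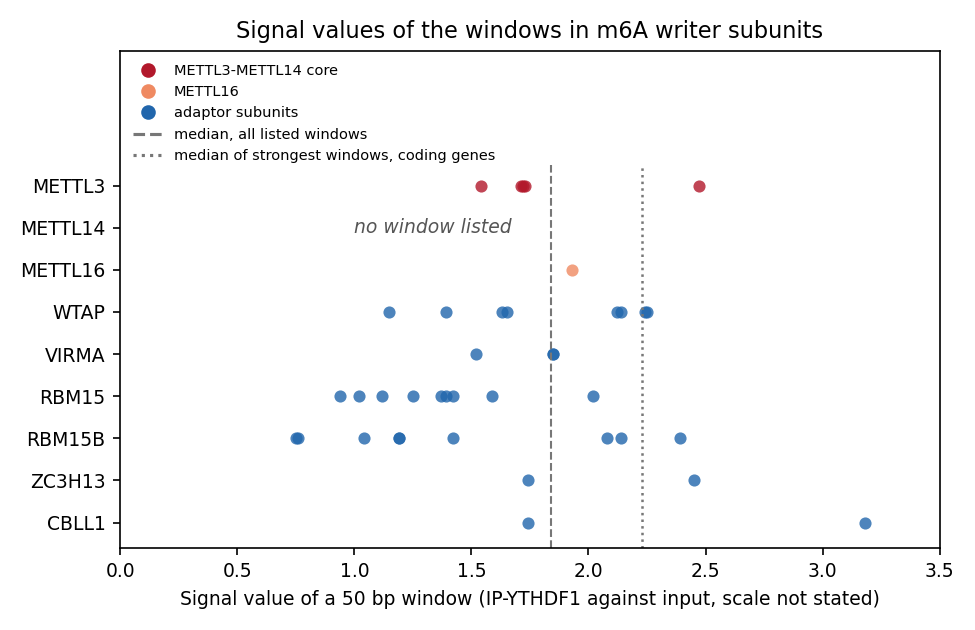
Signal value of every listed 50 bp window (horizontal axis, scale not stated) for each m6A writer gene (rows), coloured by role. The dashed line is the median of all listed windows (1.84) and the dotted line the median of the strongest windows of coding genes (2.23). CBLL1 has the strongest window at 3.18, the 9 windows of RBM15 and of RBM15B reach down to 0.94 and 0.75, and METTL14 has none.

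METTL3, the catalytic subunit (ENSG00000165819, minus strand of chromosome 14), had 5 windows. In order from the 5′ end of the gene, their signal values were 1.72, 1.54, 2.47, 1.73 and 1.71. A single window thus stood above the other 4, which lay between 1.54 and 1.73. The window with 2.47, chr14:21503284-21503333, also had the smallest p-value of the gene (1.88e-12, q = 3.58e-11). It exceeded 86.9% of all listed windows, and as the strongest window of its gene it exceeded those of 69.0% of the 6679 coding genes in the table. Percentages of strongest windows for the other writer genes refer to the same 6679. The median for coding genes with 5 windows was 2.37. Together with its neighbours the window formed 1 region of 200 bp, about 7.96 kb from the 5′ end of a 13.2 kb gene. The remaining window began 107 bp from the 5′ end.

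METTL14, the obligate partner of METTL3, had no listed window under this symbol or its RefSeq synonym. RefSeq places the gene at chr4:118685392-118715430. Without counts per library, absence from the table cannot be told apart from low expression or from enrichment that missed the q-value limit. The partners of the METTL3-METTL14 core therefore stood at 5 windows and 0, a difference that has no test.

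METTL16 (ENSG00000127804, minus strand of chromosome 17) had a single window, chr17:2420313-2420362, with a signal value of 1.93. Its q-value of 0.0209 was the largest among the best windows of the 8 genes. The value exceeded 57.0% of all windows and the strongest windows of 23.7% of coding genes, and the median of coding genes with 1 window was 2.07. The window lay 91.5 kb from the 5′ end and 4.60 kb from the 3′ end of a 96.2 kb gene. The windows of METTL3 and METTL16, 6 in all, ran from 1.54 to 2.47, inside the range of 0.75 to 3.18 covered by the 33 windows of the adaptors.

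WTAP, the adaptor that anchors METTL3 and METTL14 (ENSG00000146457, plus strand of chromosome 6), had 8 windows in 3 regions. The region nearest to the 5′ end, chr6:159727136-159727285, had signal values of 1.65, 2.24 and 2.25. The next, chr6:159727586-159727685, had 2.12 and 2.14. These 5 windows lay within 1 kb of the 5′ end, and 4 of them were between 2.12 and 2.25. The third region, chr6:159755336-159755485, lay 0.834 kb before the 3′ end, and its values of 1.63, 1.39 and 1.15 were all below those 4. The strongest WTAP window exceeded the strongest windows of 51.7% of coding genes, while the median of coding genes with 8 windows was 2.48. WTAP was also the only writer gene with a listed window of another gene within 1 kb. SOD2, the mitochondrial superoxide dismutase, had a window with a signal value of 1.63 on the minus strand 416 bp away.

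VIRMA, the scaffold of the adaptors (ENSG00000164944, minus strand of chromosome 8), had 3 windows that did not touch. From the 5′ side, their signal values were 1.52, 1.85 and 1.85. The last 2 were 50 bp apart. The strongest exceeded 50.3% of all windows and the strongest windows of 16.1% of coding genes, the lowest place among the 8. Coding genes with 3 windows had a median of 2.19. The windows lay 18.5 to 24.3 kb from the 5′ end of a 65.8 kb gene, far from both ends.

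RBM15, an RNA-binding adaptor (ENSG00000162775, plus strand of chromosome 1), had 9 windows. The table lists no more than 9 for any gene, a number shared by 854 coding genes (12.8%), and in 369 of these the orders by p-value, as derived for RBM15, ran past 9. Their signal values from the 5′ side were 1.39, 1.12, 2.02, 1.25, 0.94, 1.42, 1.02, 1.59 and 1.37. Only the third window, chr1:110339557-110339606, exceeded 1.84, the median of the table. It lay above the strongest windows of 32.7% of coding genes, and the median of coding genes with 9 windows was 2.48. All 9 began between 80 and 880 bp from the 5′ end of a gene of 7.30 kb.

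The list of RBM15 appears to be incomplete. The q-values behave as Benjamini-Hochberg adjustments made gene by gene, and under that reading the p-value times the number of tested windows, divided by the q-value, is a window's order by p-value. In RBM15 the 9 listed windows took whole orders if 84 windows were tested, namely 2, 5, 7, 10, 12, 15, 22, 24 and 27. At 42, the least number possible, and at 126, 4 of the 9 fell between orders, and 168 windows would cover 115% of the gene. With 84 tested, at least 27 windows of RBM15 passed, at least 18 of them not in the table. The window with the smallest p-value is one of those not in the table. The strongest listed value of 2.02 is then the strongest of the 9 and not necessarily of the gene.

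RBM15B, its paralog (ENSG00000259956, plus strand of chromosome 3), also had 9 listed windows. Their signal values from the 5′ side were 2.08, 1.19, 2.39, 2.14, 1.42, 1.19, 1.04, 0.76 and 0.75. The 3 values above 2 were all among the first 4 windows, and the lowest 2 were the pair farthest from the 5′ end, about 2.05 kb away. The orders by p-value ran from 1 to 9 of 118 tested windows with no gap, so no window was passed over up to the last listed one, and a number 2 times as high would cover 178% of the gene. Among the listed windows of the 8 genes, RBM15B was the exception. Its strongest window, with 2.39 and a p-value of 4.21e-05, was not the one with the smallest p-value. That one, chr3:51391586-51391635, had a signal value of 2.14 and a p-value of 7.87e-08. The strongest value exceeded those of 63.1% of coding genes, below the median of 2.48 for coding genes with 9 windows.

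ZC3H13, the adaptor that retains the complex in the nucleus (ENSG00000123200, minus strand of chromosome 13), had 2 touching windows with signal values of 1.74 and 2.45 from the 5′ side. They spanned chr13:46052466-46052565 and began 181 bp from the 5′ end of a 98.3 kb gene, the longest of the group. The stronger exceeded the strongest windows of 67.7% of coding genes, and coding genes with 2 windows had a median of 2.10.

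CBLL1 (ENSG00000105879, plus strand of chromosome 7) also had 2 touching windows, chr7:107748900-107748999, with signal values of 1.74 and 3.18. The latter was the strongest listed window of all writer genes, with the smallest p-value among their listed windows (3.46e-13, q = 6.57e-12). It exceeded 98.0% of all listed windows and the strongest windows of 94.7% of coding genes. It began 4808 bp from the 5′ end of a 17.5 kb gene.

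By strongest listed window, the order was CBLL1 (3.18), METTL3 (2.47), ZC3H13 (2.45), RBM15B (2.39), WTAP (2.25), RBM15 (2.02), METTL16 (1.93) and VIRMA (1.85). The place of RBM15 in this order and the next rests on a list that appears to be incomplete. METTL3 and ZC3H13 differed by 0.02. By the median over the listed windows of each gene, RBM15B (1.19) and RBM15 (1.37) came last and CBLL1 (2.46) stayed first. In the order by strongest window, METTL3 and METTL16 each had adaptors above and below them. METTL3 was the only listed subunit of the catalytic core, so the order cannot compare catalytic with adaptor subunits.

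**Figure D2:**
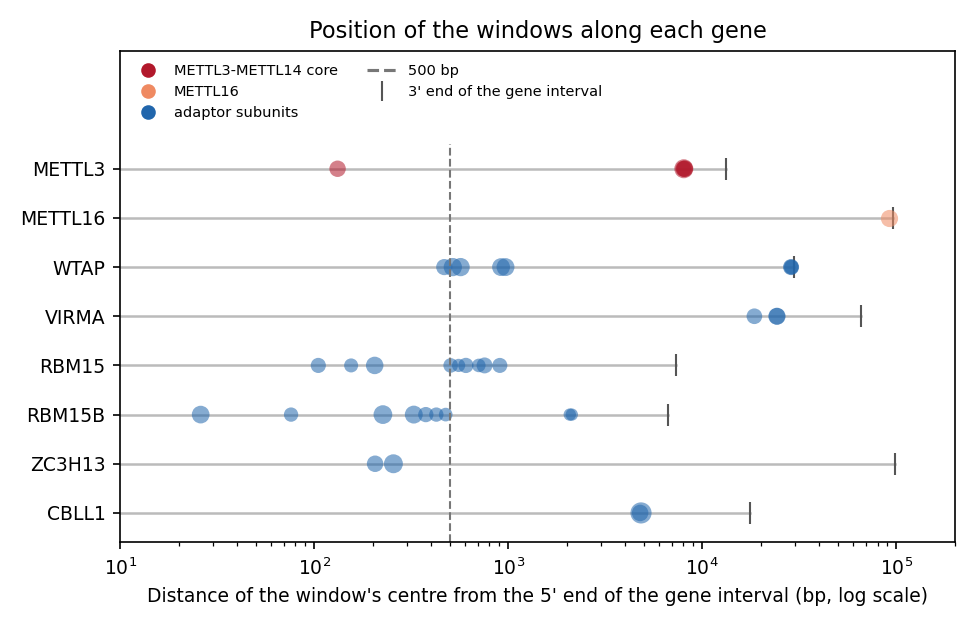
Distance of each window's centre from the 5′ end of its gene in RefSeq (horizontal axis, bp, log scale), with larger points for higher signal values. Grey lines run to the 3′ end of each gene. ZC3H13 has both windows before the dashed line at 500 bp, RBM15, RBM15B, WTAP and METTL3 have windows on both sides of it, with the last 2 of RBM15B beginning at 2051 and 2101 bp, and VIRMA, METTL16 and CBLL1 have none there.

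Many windows lay close to the 5′ ends of the genes. Within 500 bp of the 5′ end began 16 of the 39 windows, against 24.0% of 22550 windows in coding genes. Most of the 16 were in RBM15B and RBM15, the shortest genes of the group (6.62 and 7.30 kb), each with 9 listed windows. Windows of 1 gene are not independent, and gene length was not matched. At the level of genes, 5 of the 8 had at least 1 window within 500 bp (METTL3, WTAP, RBM15, RBM15B and ZC3H13), against 43.0% of 6124 coding genes. The strongest window was among them in 3 genes (RBM15, RBM15B and ZC3H13), against 30.5%. With the nearest start in the RefSeq table of gene starts in place of the outermost end, 19 windows were within 500 bp, because that table places both starts of WTAP inside the interval. No writer gene had a listed window within 500 bp of its 3′ end, a place that was taken in 5.05% of coding genes. Windows of RBM15 that were not listed, and any of RBM15B beyond the ninth, could lie there. Lists that stop at 9 windows enter this share too. In all 7550 genes of the table the windows were numbered by coordinate from 1 without a gap, and no number above 9 occurred. RBM15 lies on the plus strand, so windows numbered beyond the ninth would lie farther from its 5′ end. Its crowding there may follow from which windows were listed. The same would hold for RBM15B, also on the plus strand with 9 listed windows, if any of its windows were left out. Whether a window lay in an exon, an intron or an untranslated region was not analysed here.

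The share of tested windows that were listed gives a measure that does not depend on the signal value. In METTL3 it was 5 of 19 (26.3%), higher than in 95.4% of coding genes. In WTAP it was 8 of 33 (24.2%), higher than in 93.8%. The other genes lay between 1 of 55 in METTL16 (1.82%) and 2 of 19 in CBLL1 (10.5%), apart from RBM15 at 9 of 84 (10.7%). With the windows not listed counted, RBM15 had at least 27 of 84 (32.1%). The median was 8.89% over the 6653 coding genes with a derived number of tested windows, to which the 95.4% and 93.8% also refer. Genes with 9 listed windows can be cut short, and their number of tested windows is less certain. Among the 5799 coding genes with fewer, the median was 8.33%, and METTL3 and WTAP lay above 96.0% and 94.5% of them. The tested windows covered 89.1% of the gene in RBM15B and 57.5% in RBM15, but 1.17% to 7.20% in the other 6.

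**Figure D3:**
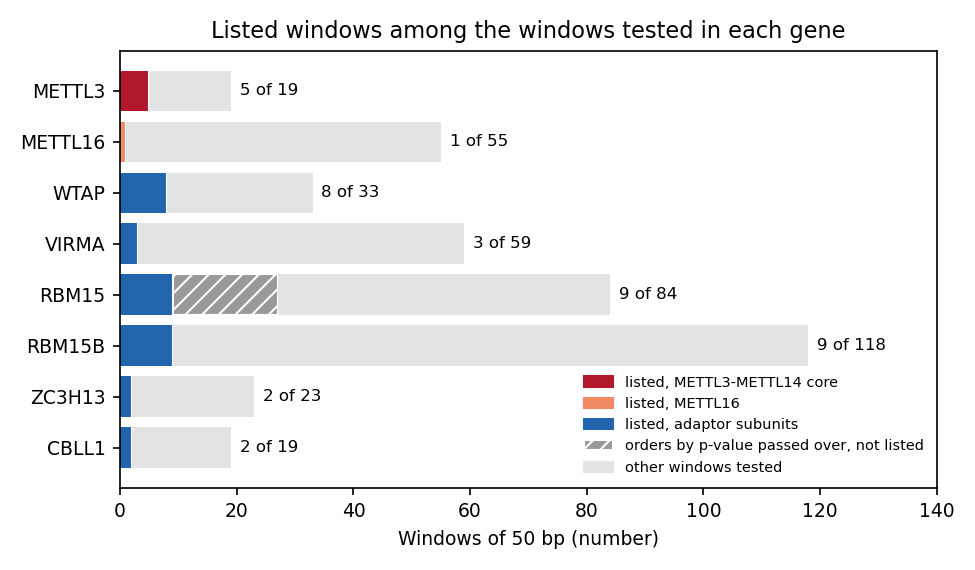
Number of 50 bp windows tested in each writer gene, as derived from the p-values and q-values (bar length), with listed windows in colour and, for RBM15, 18 orders by p-value that were passed and not listed hatched. METTL3 and WTAP have the largest listed shares, and METTL16 has 1 of 55.

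The other genes of the m6A pathway were described from lists set for the same purpose. Both erasers had a window, FTO and ALKBH5, with strongest signal values of 2.17 and 2.66. Of 10 readers, 9 had one, from 1.52 in HNRNPC to 2.50 in YTHDC1, and IGF2BP1 had none. YTHDF1 itself, the overexpressed protein, reached 1.92. RNA of the introduced YTHDF1 could not be told apart from that of the cell's own gene. All 3 genes of the methyl donor cycle had a window: MAT2A, the target mRNA of METTL16, had 9 with a strongest value of 2.01, MAT2B had 1 with 1.87 and AHCY had 1 with 1.81. None of the 5 genes of other m6A methyltransferases had one, in a table that lists 31.8% of all coding genes, so that a count of 0 among 5 sets them little apart. These were METTL5 and its partner TRMT112, which modify 18S ribosomal RNA, ZCCHC4, which modifies 28S ribosomal RNA, PCIF1, which modifies the base next to the cap, and METTL4.

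Among 17 relatives of the members by family or name, 6 had a window (35.3%), close to the 31.8% of all coding genes. SPEN, of the same family as RBM15, had 9 with a strongest value of 2.59. METTL15, a mitochondrial ribosomal RNA methyltransferase, had 9 and reached 3.64, above CBLL1. METTL2A, METTL2B, METTL9 and METTL22 had 2 to 5 windows and strongest values of 1.75 to 2.22. No window was listed for METTL1, METTL6, METTL8, METTL17, METTL18, METTL23, METTL24, METTL25, METTL26, METTL27 and CBLL2. For comparison, IRF1, the IFN-γ response gene that the study followed, had 3 windows and a strongest value of 2.37, between WTAP and RBM15B. Its smallest q-value was given as 0, below the smallest listed for any writer gene (6.57e-12, in CBLL1).

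**Figure D4:**
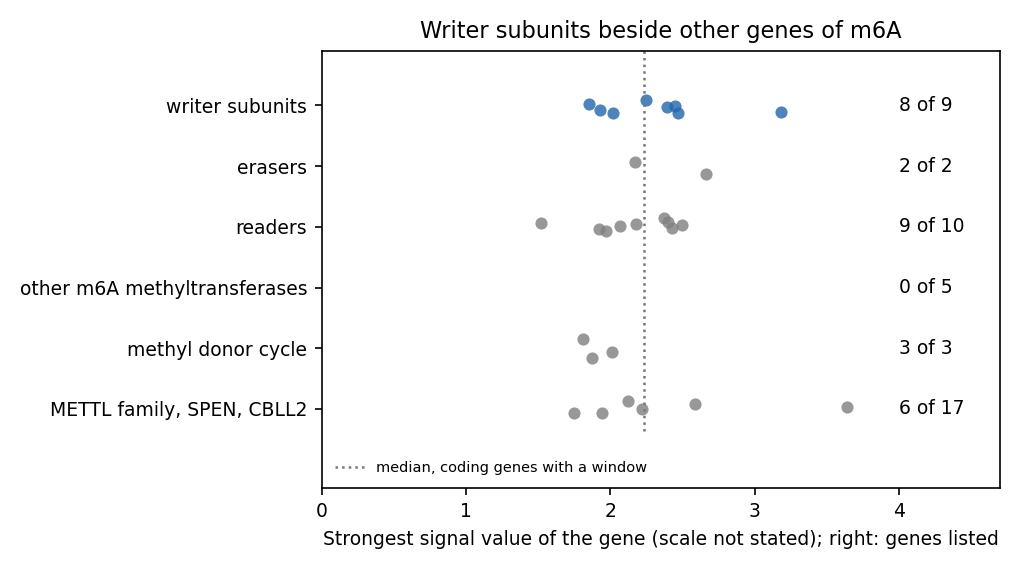
Strongest signal value of each gene with a listed window (points, horizontal axis, scale not stated) for the writer genes and the other lists, with the number of genes listed at the right. The dotted line is the median over coding genes (2.23). Writer genes run from 1.85 to 3.18, and the other m6A methyltransferases have no point.

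RefSeq holds 3 pseudogenes named after members, WTAPP1, WTAPP2 and CBLL1P1, none of them with a listed window, and how reads with several matches were treated is not given in the sources used here. Their likeness to WTAP and CBLL1 in sequence was not measured, and whether shared reads touch the values of these genes was not tested.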

How the data were processed

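RIP-seq libraries of IP-YTHDF1 and Input from SNU638 cells were compared by the authors, who deposited 1 table of annotated peaks. The submitters' processing notes name STAR 2.7.3a and GRCh38. Libraries were made with a stranded kit after removal of ribosomal RNA. A legend of the study speaks of a union of replicates for peaks. The peak caller, how the values of replicates were joined and the treatment of reads with several matches are not given in the sources used here. The deposited signal value and rank are read as a score per window, since no scale is given. The deposited p-values and q-values were used as listed. No column belonged to a single library (0 were left unused), so no test over samples could be made.

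Of 26820 rows, 1 repeated row was dropped. Rows were selected by gene symbol. Positions are given from 1. RefSeq held 6370 of the 6674 coding symbols in the table (95.4%), older names included where unambiguous. Of 23172 windows in coding genes with a unique symbol, 97.3% lay inside the RefSeq interval of GRCh38.p14, and distances refer to its ends. How many windows a gene had been tested for was taken from the least possible number and its small multiples. The smallest that puts each listed window at a whole order by p-value was used, with the last of windows that share a q-value. Where none did so, the least possible number entered the shares over coding genes. For RBM15 the tolerance was 0.1. This step was tested on simulated data. It recovered the number in nearly all genes with complete lists, but often failed to where the list was cut at 9 windows. The largest order seldom exceeded the true number of passing windows in either case.

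The members, the lists and the comparisons were chosen with earlier results of these data known. All 9 members are named, other genes only from the fixed lists, with SOD2 and the pseudogenes added after their values were seen. Tools were matplotlib 3.10.9 for plots, SciPy 1.17.1 for intervals, and pandas 2.3.3 with NumPy 2.4.6 under Python 3.11.15. Alternatives were a q-value limit of 0.001, a signal value of at least 2, a Bonferroni limit, removal of overlapping windows, joined windows and other summaries per gene.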

Additional observations from a re-analysis of the deposited data

How the results depend on the processing

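No paired analysis was possible because replicates are not told apart in the deposited values, and for the same reason leaving out each replicate was not run. Of 9 genes, 8 had a window, and the Bonferroni limit left 5. The 39 windows became 17 at a q-value of at most 0.001, 11 at a signal value of at least 2, 6 under the Bonferroni limit and 19 when touching windows were joined. The share of coding genes with a window, 31.8%, moved to 21.2%, 22.0% and 12.5% under those 3 limits, to 30.1% and 30.0% without overlapping windows on the same or either strand, and to 31.1% with unique symbols only. The median of the strongest values, 2.32, was 1.87 from gene medians and 2.195 from the windows with the smallest p-value. Counts of RBM15 rose from 9 to at least 27 by order of p-values, an alternative chosen after seeing the data. The distance from the nearest start and the background of genes with fewer than 9 windows were also chosen after seeing the data. Without counts, neither depth nor the reason for the absence of METTL14 can be resolved.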
